A study of Homo sapiens with 4 samples.

Results

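The 9 genes described here encode enzymes that make, recycle or destroy the deoxynucleotides from which DNA is built. They were taken by name (TK1, TK2, RRM1, RRM2, TYMS, DUT, DTYMK, DCK and SAMHD1) from 27940 gene symbols measured in U87, an established human glioma cell line, and all 9 were among the 11394 genes tested. The series holds 4 mRNA libraries in 2 groups of 2. The shNC group was infected with lentivirus made from the empty FUGW-H1 vector, although the series' design text calls the control H1-RFP (WT). The shPTPRN3 group was infected with lentivirus for a short hairpin RNA against PTPRN, a protein of dense-core vesicle membranes related to receptor tyrosine phosphatases. Both groups were grown in the same serum-containing medium. The labels state neither the time from infection to harvest nor a selection of infected cells, and only 1 hairpin and 1 cell line were sequenced. The libraries are called biological replicates without mention of independent cultures; each p-value therefore reflects library-to-library spread, part of which may be technical.

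Deoxynucleotides arise by 2 routes. In the first, ribonucleotide reductase, an enzyme of a large subunit (RRM1) and a small subunit (RRM2 or its p53-inducible relative RRM2B), reduces ribonucleotides, and thymidylate synthase (TYMS), thymidylate kinase (DTYMK) and dUTPase (DUT) supply thymidine nucleotides and keep uracil out of DNA. In the second, nucleoside kinases salvage ready-made deoxynucleosides: TK1 in the cytosol, TK2 in mitochondria and DCK, which takes deoxycytidine and purine deoxynucleosides. SAMHD1 works in the opposite direction and cuts deoxynucleoside triphosphates back to nucleosides. TK1, RRM1, RRM2, TYMS, DUT and DTYMK are known to be transcribed most around S phase and are called the S-phase members here. TK2, DCK and SAMHD1, which are also expressed in resting cells, are called the other members.

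The letters before the start sites of the members that differed most between the groups, with those of RRM1 for contrast, are shown first. They are from RefSeq on GRCh38.p14, a release of the assembly that hg38 names, and all 9 members had an entry, with 2 for TK1, 2 for RRM2 and 4 for DUT. Within the 250 bases before each start, 4 sets of letters were searched on both strands: CCAAT, the box bound by the factor NF-Y; TTTCCCGC, TTTGGCGC, TTTCGCGC or TTTGCCGC, forms of the E2F element; TTTGAA or TTCGAA, forms of the cell-cycle homology region; and GGGCGG, the box of the factor SP1. Matches to the first 3 are in capitals, and an ATTGG or GCGGGAAA is a match read on the opposite strand. No matches shown overlap each other. Of the 2 RRM2 windows, on the plus strand, 1 held the CCAAT letters once, at position -249 from its own start, and is not shown. In the other they stood 3 times, beginning at positions -123, -93 and -66 from the start, each followed by the same 8 letters. The stretch from 120 to 10 bases before the start (chr2:10122619-10122729) holds the nearer 2, and the remaining one is given as a short site (chr2:10122608-10122628):
RRM2, 120 to 10 bases before the start: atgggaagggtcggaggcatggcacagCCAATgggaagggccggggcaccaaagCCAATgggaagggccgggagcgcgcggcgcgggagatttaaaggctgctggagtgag
RRM2, farthest CCAAT: aggcgcagCCAATgggaaggg
TK1, minus strand (chr17:78187117-78187137 and chr17:78187086-78187106), had 2 in 1 of its 2 windows, and DTYMK, minus strand (chr2:241686886-241686915 and chr2:241686827-241686847), had 2, the farther one next to a TTCGAA:
TK1, farther site: gggcgctgATTGGccccatgg
TK1, nearer site: ggctcgtgATTGGccagcacg
DTYMK, farther site: ggccccggCCAATcccTTCGAAtttggccg
DTYMK, nearer site: gacgccggCCAATgggagctc
TYMS (chr18:657606-657629) and 1 of the 4 DUT windows (chr15:48332152-48332180), both on the plus strand, had E2F letters and no CCAAT, and the DUT window also had 2 matches to TTTGAA on the opposite strand, at positions -214 and -129, outside the site shown:
TYMS: ggacggccGCGGGAAAaggcgcgc
DUT: ctgGCGGGAAAtttcggtTTTGGCGCgct
RRM1, plus strand (chr11:4094435-4094684), had 1 CCAAT and 1 match to TTTGAA on the opposite strand:
RRM1, 250 bases before the start: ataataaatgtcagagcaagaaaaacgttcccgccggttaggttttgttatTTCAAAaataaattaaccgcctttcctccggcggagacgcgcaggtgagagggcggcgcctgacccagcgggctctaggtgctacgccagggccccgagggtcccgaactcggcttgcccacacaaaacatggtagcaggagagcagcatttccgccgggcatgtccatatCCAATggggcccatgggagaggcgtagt

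Of 34788 RefSeq windows of the same length, 32% held CCAAT, 9.53% held it at 2 or more places, 2.78% held E2F letters, 14.4% held the cell-cycle homology letters and 42.6% held GGGCGG. SAMHD1 also had CCAAT at 2 places, and TK2 and DCK had none of the first 3 kinds. GGGCGG, read on either strand, was found before a start of TK1, RRM1, RRM2, DUT, DTYMK and DCK. It was absent for TYMS, TK2 and SAMHD1. A match describes the sequence only.

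Values below are FPKM (fragments, normalised by the authors to transcript length and library size), scaled by 1 factor per library, so that levels of different genes are compared per length. The deposited interval widths imply 15.2 to 32.6 M fragments per library. PTPRN, the targeted gene, stood at 27.6 and 19.8 in shNC and at 4.96 and 3.62 in shPTPRN3 (18.1% of the control mean; log2 fold change -2.22, SE 0.34, limma adjusted p = 0.0594). Of 10 markers of glioma and astroglia, GFAP and AQP4 were at 0 in every library and 4 (SOX9, NES, SLC1A3 and FABP7) had a mean of at least 1, while 9 of 10 mesenchymal markers did. Across libraries the summed astroglial markers ran from 13.0 to 20.8 in shNC and from 8.61 to 11.6 in shPTPRN3, and the summed mesenchymal markers from 2987 to 4856 and from 3057 to 5323. SLC1A3 was the largest part of each astroglial sum. SLC1A3 (log2 fold change -0.72), NES (-0.94) and FABP7 (-0.78) stood lower in both shPTPRN3 libraries, an order found for 23.1% of all tested genes. SOX9 (0.35) overlapped between the groups, and OLIG2 and SOX2, with means under 1, stood higher in both shPTPRN3 libraries. The mesenchymal sums were mostly VIM and LGALS1. Mesenchymal markers higher in both shPTPRN3 libraries than in either shNC library were SPARC (log2 fold change 2.42), COL1A2 (2.16), COL1A1 (1.71) and FN1 (1.70). CD44 (0.13) shared this order, which was found for 21.5% of all tested genes. The groups overlapped for CHI3L1 (0.49), TIMP1 (0.19), LGALS1 (-0.29) and VIM (-0.33). Limma called none of the astroglial or mesenchymal markers. All endothelial and epithelial markers had a mean under 1, of 7 leukocyte markers only CD68 had a mean of at least 1, and of 7 neuronal markers TUBB3, SNAP25 and MAP2 had a mean of at least 1. The part of these markers in the results below was not tested.

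All 9 members stood lower in both shPTPRN3 libraries than in either shNC library, an order found for 23.1% of all tested genes. None passed the threshold of an adjusted p of 0.05 in limma over all genes, which called 0.421% of genes (48 of 11394: 39 lower, 0.342%, and 9 higher, 0.0790%). On TPM the calls were 20 lower and 10 higher, again without a member. At an unadjusted p under 0.05 limma placed 5 of the 6 S-phase members and 0 of the 3 other members lower, against 7.79% of all tested genes, and none higher (background 5.66%). A log2 fold change of -1 or lower was found for 6 of 9 members against 6.31% of all tested genes, and one of 1 or higher for 0 of 9 against 4.26%. The confidence intervals of the 2 groups, compared as deposited and without the scaling, did not overlap in 7 members, all lower in shPTPRN3. This order was found for 11.9% of the 10771 tested genes with 1 row. The intervals overlapped in TK2 and DCK. In RRM1 the lowest shNC bound was 34.9 and the highest shPTPRN3 bound 33.3, and in SAMHD1 4.27 and 3.96. Scaled by the factor of each library, the intervals of RRM1 and SAMHD1 would overlap as well. The median log2 fold change was -1.69 over the S-phase members and -0.63 over the other members, against -0.01 over all tested genes. Permuting the 4 libraries exactly gave a two-sided p of 0.333 for every member, which is the minimum for groups of 2. In bulk RNA, fewer cells of a type (such as cells in S phase) and less RNA per cell cannot be told apart.

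**Figure D1:**
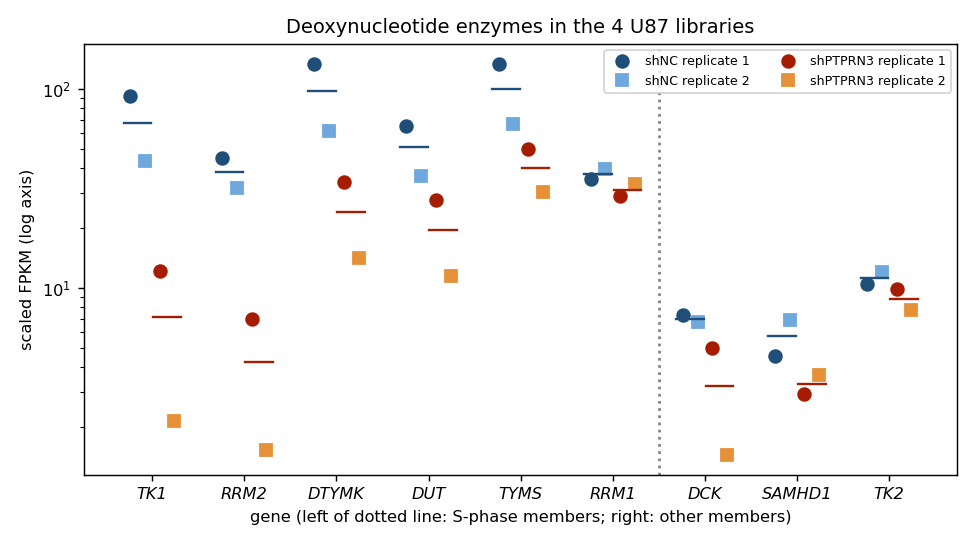
Scaled FPKM (log axis) of the 9 members in each of the 4 libraries, with 1 point per library and a short line at each group's mean. TK1 and RRM2 are far lower in the shPTPRN3 libraries, with 2.16 and 1.54 in replicate 2, while RRM1 stays between 28.8 and 39.5 in every library.

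TK1, the cytosolic thymidine kinase (chr17:78174079-78187204, minus strand, hg38), stood at 92.0 and 43.2 in shNC and at 12.2 and 2.16 in shPTPRN3. The groups were far apart, but each was also widely spread: the shPTPRN3 libraries differed from each other 5.66-fold and the shNC libraries 2.13-fold. The group means were 67.6 ± 34.5 and 7.18 ± 7.11 (SD, n = 2), 9.42-fold lower in shPTPRN3. The log2 fold change, computed with 1 added to each value, was -3.31 (SE 0.70, 95% interval -4.96 to -1.66, limma adjusted p = 0.102). Only 14 of the 11394 tested genes had a lower value. Without shPTPRN3 replicate 1 TK1 passed the threshold (log2 fold change -4.34, limma adjusted p = 0.00295), and without shPTPRN3 replicate 2 it had -2.27 (limma adjusted p = 0.128).

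RRM2, the small subunit of ribonucleotide reductase that is made in S phase (chr2:10122568-10211010, plus strand), stood at 44.8 and 31.7 in shNC and at 7.01 and 1.54 in shPTPRN3. Both shPTPRN3 values were at most 22.1% of the lower shNC value and differed from each other 4.55-fold. The means were 38.3 ± 9.30 and 4.27 ± 3.86 (SD, n = 2), 8.95-fold lower, with a log2 fold change of -3.10 (SE 0.55, 95% interval -4.41 to -1.79). Its limma adjusted p of 0.0737 was the lowest among the 9 members. It passed without shPTPRN3 replicate 1 (log2 fold change -3.92, limma adjusted p = 0.00274) and had -2.26 without shPTPRN3 replicate 2 (limma adjusted p = 0.0756).

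Of the tested genes, 267 were listed at exactly 0 in at least 1 library, which can be a failed estimate, and none of the 9 members was among them. With those genes left out, TK1 (limma adjusted p = 0.0305) and RRM2 (limma adjusted p = 0.0270) passed the threshold and the other 7 members did not, while the fold changes were as above. That fit called 219 of 11127 genes.

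RRM1, the large subunit (chr11:4094685-4138932, plus strand), stood at 35.2 and 39.5 in shNC and at 28.8 and 33.2 in shPTPRN3. It varied least among the S-phase members, and its nearest libraries of the 2 groups lay closer together than the 2 libraries within either group. The means were 37.4 ± 3.05 and 31.0 ± 3.08 (SD, n = 2), 83.0% of control, with a log2 fold change of -0.26 (95% interval -1.04 to 0.51, limma adjusted p = 0.781). Leaving out shPTPRN3 replicate 1 gave -0.17. Of the S-phase members it was the single one with an unadjusted p above 0.05 (0.447). The 2 subunits that form 1 enzyme therefore stood in different proportions: RRM2 per RRM1 was 1.27 and 0.801 in shNC and 0.243 and 0.0464 in shPTPRN3.

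RRM2B, the small subunit that p53 induces and that serves resting and damaged cells, is not one of the 9 but shares the partner RRM1. It stood at 8.01 and 12.9 in shNC and at 22.5 and 35.5 in shPTPRN3, with no overlap between the groups. It was 2.77-fold higher in shPTPRN3, with a log2 fold change of 1.39 (SE 0.39, 95% interval 0.47 to 2.30, limma adjusted p = 0.189). Of the summed RRM2 and RRM2B level, RRM2 made up 84.8% and 71.1% in shNC and 23.7% and 4.17% in shPTPRN3. RRM2 was thus the more abundant small-subunit transcript in both shNC libraries, and RRM2B in both shPTPRN3 libraries. The sum itself was 52.8 and 44.6 in shNC and 29.5 and 37.0 in shPTPRN3, a smaller difference than that of either transcript. CDKN1A, another p53 target and an inhibitor of cyclin-dependent kinases, stood at 142 and 89.2 in shNC and at 609 and 918 in shPTPRN3 (log2 fold change 2.72, limma adjusted p = 0.0762).

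**Figure D2:**
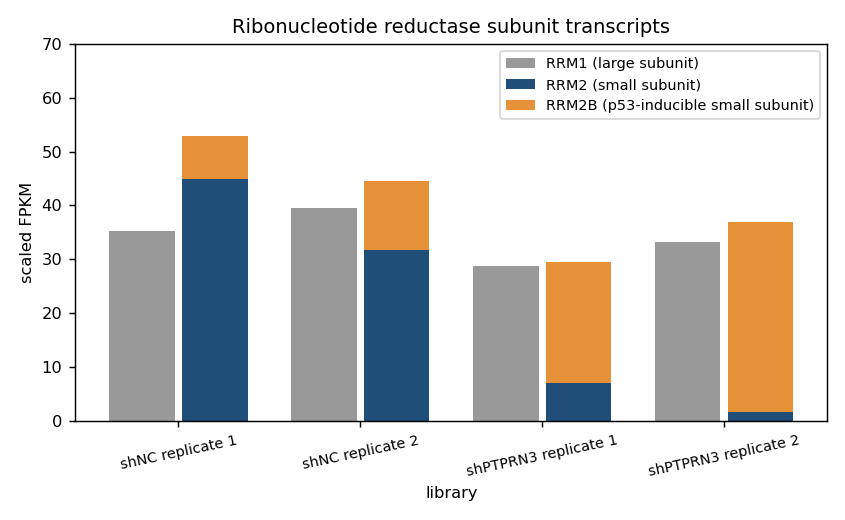
Scaled FPKM of the ribonucleotide reductase subunits in each library, with RRM1 as a grey bar and RRM2 and RRM2B stacked beside it. RRM1 is similar in all 4 libraries, RRM2 makes up 84.8% and 71.1% of the stacked bar in shNC and RRM2B makes up most of it in shPTPRN3.

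The 3 members of the thymidylate branch were lower to a smaller degree than TK1 and RRM2. DTYMK, which phosphorylates thymidine monophosphate from both routes (chr2:241675749-241686815, minus strand), stood at 134 and 61.6 in shNC and at 34.2 and 14.1 in shPTPRN3. Its groups did not overlap, but the shNC libraries differed 2.17-fold and the shPTPRN3 libraries 2.42-fold. The means were 97.6 ± 50.9 and 24.2 ± 14.2 (SD, n = 2), 4.04-fold lower, with a log2 fold change of -1.99 (SE 0.55, 95% interval -3.29 to -0.69, limma adjusted p = 0.186).

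DUT, which removes dUTP and yields the substrate of TYMS (chr15:48331095-48343373, plus strand), stood at 64.8 and 36.6 in shNC and at 27.7 and 11.5 in shPTPRN3. The higher shPTPRN3 library reached 75.5% of the lower shNC library, so the groups lay close together. The means were 50.7 ± 19.9 and 19.6 ± 11.4 (SD, n = 2), 2.59-fold lower (log2 fold change -1.39, SE 0.50, limma adjusted p = 0.299). Without shPTPRN3 replicate 2 the DUT log2 fold change was -0.78. The tables give 1 value per gene, so the nuclear and mitochondrial forms of DUT could not be compared.

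TYMS, which methylates deoxyuridylate to thymidylate (chr18:657653-673577, plus strand), stood at 134 and 66.6 in shNC and at 49.8 and 30.3 in shPTPRN3. It had the highest level of the 9 in 3 of the 4 libraries. The means were 100.2 ± 47.5 and 40.0 ± 13.8 (SD, n = 2), 2.50-fold lower (log2 fold change -1.26, SE 0.47, limma adjusted p = 0.317). Without shNC replicate 1 the TYMS log2 fold change was -0.76. TYMS overlaps 2 genes on the opposite strand, ENOSF1 at its 3' end by 3260 bases and TYMSOS at its 5' end by 639 bases. As deposited, ENOSF1 was listed at 0 FPKM in shNC replicate 1 and at 6.81, 4.52 and 3.81 in the others, and TYMSOS at 31.6 in shPTPRN3 replicate 1 and at 0 in the other 3. With the strand setting of the counting not given, fragments of these genes and of TYMS cannot be told apart, and the TYMS values are uncertain to that degree.

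The ratio of DUT to TYMS overlapped between the groups, with 0.485 and 0.550 against 0.555 and 0.380. The ratio of DTYMK to TYMS did not, with 0.999 and 0.925 against 0.687 and 0.467. TYMS per TK1, the synthesis enzyme over the salvage enzyme for the same product, was 1.45 and 1.54 in shNC and 4.08 and 14.0 in shPTPRN3.

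Among the other members, DCK, the deoxycytidine kinase (chr4:70993649-71030912, plus strand), stood at 7.32 and 6.72 in shNC and at 5.00 and 1.45 in shPTPRN3. The shNC libraries were close, and the shPTPRN3 libraries differed 3.45-fold. The means were 7.02 ± 0.425 and 3.22 ± 2.51 (SD, n = 2), 45.9% of control, with a log2 fold change of -1.06 (SE 0.46, 95% interval -2.14 to 0.01, limma adjusted p = 0.378). Without shPTPRN3 replicate 2 the DCK log2 fold change was -0.41, and without shPTPRN3 replicate 1 it was -1.70.

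TK2, the mitochondrial thymidine kinase (chr16:66508003-66550412, minus strand), stood at 10.5 and 12.1 in shNC and at 9.95 and 7.75 in shPTPRN3. The nearest libraries of the 2 groups differed little, with shPTPRN3 replicate 1 at 95.1% of shNC replicate 1. The means were 11.3 ± 1.15 and 8.85 ± 1.55 (SD, n = 2), with a log2 fold change of -0.32 (95% interval -1.07 to 0.42, limma adjusted p = 0.716). Leaving out shPTPRN3 replicate 2 gave -0.15 and leaving out shPTPRN3 replicate 1 gave -0.49. TK1 per TK2 was 8.80 and 3.58 in shNC and 1.23 and 0.279 in shPTPRN3, so in shPTPRN3 replicate 2 the mitochondrial kinase had the higher level.

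SAMHD1, the triphosphohydrolase (chr20:36889775-36951843, minus strand), stood at 4.55 and 6.89 in shNC and at 2.93 and 3.65 in shPTPRN3. The groups did not overlap, and the shNC libraries differed by more than the gap between the groups. The means were 5.72 ± 1.66 and 3.29 ± 0.515 (SD, n = 2), 57.5% of control, with a log2 fold change of -0.63 (95% interval -1.41 to 0.15, limma adjusted p = 0.451). Leaving out shNC replicate 2 gave -0.38. Its locus overlaps that of TLDC2, which was listed at 0 in all 4 libraries, as was MIR4261 within RRM2.

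**Figure D3:**
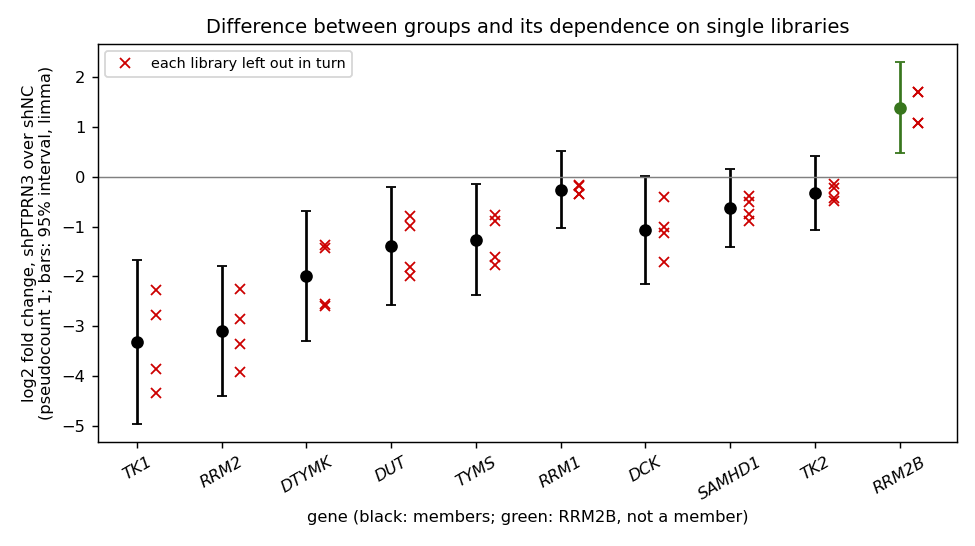
Log2 fold change of shPTPRN3 over shNC (y axis, pseudocount 1) for the 9 members in black and for RRM2B in green, with 95% intervals from limma, and crosses for the value with each library left out in turn. The intervals of TK1, RRM2, DTYMK, DUT and TYMS lie below 0, those of RRM1, DCK, SAMHD1 and TK2 include 0, and every cross lies on the same side of 0 as its point.

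The S-phase and other members did not separate by their difference between groups. RRM1 (83.0% of control) lay beside TK2 (78.5%), and DCK (45.9%) lay nearer to TYMS (40.0%) and DUT (38.6%) than to TK2. Within each library the median log2 level of the S-phase members exceeded that of the other members by 3.23 and 2.42 in shNC and by 2.29 and 1.56 in shPTPRN3. The lead was smaller in both shPTPRN3 libraries. Summed, the S-phase members held 504 and 279 in shNC and 160 and 92.8 in shPTPRN3, and the other members 22.3 and 25.7 against 17.9 and 12.9.

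The order of the levels also differed. In shNC the means ran from TYMS and DTYMK through TK1, DUT, RRM2 and RRM1 to TK2, DCK and SAMHD1. Neighbours overlapped except RRM1 over TK2 and TK2 over DCK. In shPTPRN3 they ran from TYMS through RRM1, DTYMK, DUT, TK2, TK1 and RRM2 to SAMHD1 and DCK, where only DUT and TK2 were neighbours that did not overlap. TK1 ranked 3 of 9 in both shNC libraries and 5 and 7 in the shPTPRN3 libraries, where RRM2 ranked 7 and 8.

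The 2 libraries of a group did not agree equally well for all members. TK1, TYMS, DTYMK and DUT were 1.77-fold to 2.17-fold higher in shNC replicate 1 than in replicate 2, whereas RRM1, TK2 and SAMHD1 were lower there. The longest annotated transcripts of the first 4 are 1681, 1662, 1232 and 2147 bases and those of the latter 3 are 3076, 5114 and 5298 bases. RRM2 (3673 bases, longer than RRM1) was also higher in shNC replicate 1, by 1.42-fold, and DCK (2716 bases) by 1.09-fold. The members thus did not split fully by length. Across 11146 genes, the difference of shPTPRN3 from shNC correlated with transcript length with Spearman's rho from -0.365 to 0.47 in the 4 pairs of libraries, a description across genes, which are not replicates. With a length trend removed from each library, the log2 fold changes were -3.20 for TK1, -3.10 for RRM2, -1.84 for DTYMK, -1.32 for DUT and -1.15 for TYMS, and limma's adjusted p was 0.0568 for both TK1 and RRM2.

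By a rule on the 4 centred log2 values, the genes whose pattern lay closest to the median S-phase member were UBE2T, an E2 enzyme of the Fanconi anemia pathway, PPIH, DGCR6L, CSF3 and MT1H, out of 7190 candidates. UBE2T, the closest at a distance of 0.0747, stood at 40.2 and 20.1 in shNC and at 12.2 and 4.67 in shPTPRN3. With 4 libraries many genes can share a pattern, and this is a description only. Between the members themselves, RRM1 and TK2 were the closest pair and TK1 and RRM1 the farthest.

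Of 16 tested genes that regulate these enzymes or mark the cell cycle, 12 had negative values (against 50.5% of all tested genes), with a median log2 fold change of -1.11. CDK1 and MKI67 fell (limma adjusted p = 0.0361 and 0.0465), the only 2 called among the 16 (background 0.421%), and 9 of the 16 were lower at an unadjusted p under 0.05 (background 7.79%). CDK1, which with cyclin A phosphorylates SAMHD1, stood at 30.3 and 20.1 in shNC and at 2.21 and 0.411 in shPTPRN3. MKI67, a proliferation marker, stood at 15.6 and 34.3 in shNC and at 1.90 and 0.566 in shPTPRN3. Without shNC replicate 2 none of the pathway and regulator genes was called by limma, and without shNC replicate 1 only 1 was. None was called on unscaled FPKM or with a pseudocount of 0.5 either.

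The wider nucleotide pathway was described with 6 lists, of which 68 of 74 genes were tested. By limma none was called in either direction over all genes, and at an unadjusted p under 0.05 there were 12 lower and 2 higher, against 7.79% and 5.66% of all tested genes. The median log2 fold change over the 68 genes was -0.45, and 29 stood lower and 8 higher with no overlap between groups, against 23.1% and 21.5% of all tested genes. Medians were -0.80 for pyrimidine synthesis (8 genes), -0.43 for purine synthesis (14 genes), -0.22 for the folate cycle (13 genes) and -0.51 for other kinases, reductase partners and salvage (17 genes). In the folate cycle SHMT1, the cytosolic serine hydroxymethyltransferase, had a log2 fold change of -1.15 and the folate carrier SLC19A1 -1.08. In purine synthesis PFAS had -1.37 and PRPS2 -1.24. In pyrimidine synthesis CAD, which carries out the first steps, had -0.97. UCKL1 stood at 14.5 and 6.66 in shNC and at 5.29 in shPTPRN3 replicate 1 and was listed at 0 in replicate 2. Among the other kinases and salvage enzymes the dCTP pyrophosphatase DCTPP1 had -1.32, the mitochondrial deoxyguanosine kinase DGUOK -0.08 and the deoxycytidylate deaminase DCTD -0.67. The adjusted p of each of these genes was at least 0.189 in limma.

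**Figure D4:**
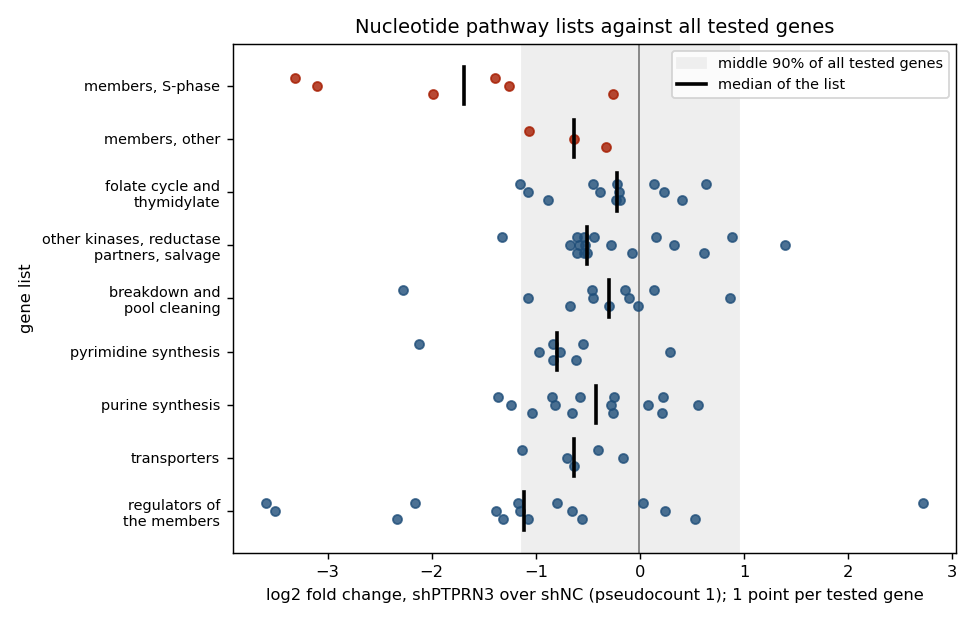
Log2 fold change of shPTPRN3 over shNC (x axis), 1 point per tested gene, for the members in red and the pathway and regulator lists in blue, with each list's median as a black bar and the middle 90% of all tested genes (-1.13 to 0.95) in grey. The S-phase members and the regulators have medians at -1.69 and -1.11, and the pathway lists lie between -0.80 and -0.22.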

How the data were processed

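Libraries of 2 shNC and 2 shPTPRN3 samples were made with a kit that keeps strand, per the labels' protocols. The submitters' processing notes name FastQC 0.72, STAR 2.6.0b-1, Cufflinks 2.2.1.2 and hg38; the annotation and the strand option were not given there. The authors deposited FPKM per gene with a confidence interval and a status, per the file headers, and hold no fragment counts.

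The 4 tables of 33646 rows were joined, 651 rows whose status was not OK in at least 1 library were left out, and rows were summed per symbol; each member had 1 row. FPKM were divided by a median-ratio factor per library (0.943 to 1.05) over 9988 genes. Genes whose mean reached 1 FPKM entered the test on log2(scaled FPKM + 1) with limma 3.58.1 (R 4.3.3, trended eBayes, two-sided, Benjamini-Hochberg over all genes, threshold 0.05), with 2 residual degrees of freedom. Depth was estimated by taking interval half-widths as 2 SD of a count, over 313 single-exon genes; so read, a member's value rested on 42 (TK1, shPTPRN3 replicate 2) to 2390 fragments. These intervals cover error within a library only. The fit was also run on simulated data with independent noise in each library. That setting lacks the shared deviations of libraries described below, so it cannot speak to their effect on the fit. Transcript lengths came from GENCODE 29. The members and lists were chosen with earlier results of these data known. Genes outside the 9 were named by rule: called list genes, or a list's 2 largest log2 fold changes among genes whose groups did not overlap; RRM2B, DGUOK, DCTD and CDKN1A; genes overlapping a member; and the 5 genes closest in pattern. Some genes this rule names are not reported here. Alternatives covered scaling, pseudocount, filters, row status, eBayes settings, genes at 0, transcript length, a replicate block and leaving out each library.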

Additional observations from a re-analysis of the deposited data

How the results depend on the processing

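All 9 members kept a negative log2 fold change under the 17 alternatives run. No member was called except RRM2 with robust eBayes (1 member), TK1 and RRM2 with genes listed at 0 left out (2 members), TK1 and RRM2 without shPTPRN3 replicate 1, and the members named below under the block. Genes called over all tested genes numbered 48, against 31 for unscaled FPKM, 23 after adding 0.1 in place of 1, 30 for TPM, 8 where the mean had to reach 5 FPKM, 0 where no filter was set, 160 with robust eBayes, 26 without trend, 219 with genes listed at 0 left out and 193 with the length trend removed; the cause was not tested. Pathway and regulator genes called numbered 2, against 0 for unscaled FPKM, either other pseudocount, no filter, the filter at 5 FPKM and no trend, 1 on TPM and with quantile normalization, 4 with robust eBayes, 6 with genes listed at 0 left out and 5 with the length trend removed. With no filter limma called 0 genes, and 1 member had an unadjusted p under 0.05.

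Leaving out 1 library at a time gave 58 to 199 genes called, 0 to 2 members called, 0 to 6 pathway and regulator genes called, S-phase medians from -2.30 to -1.13 and medians of the other members from -0.88 to -0.38. A lone library was then assumed to vary like the other group. Libraries with the same replicate number deviated together (r = 0.519 across genes), but with 2 pairs they share only a number. With the replicate block, 2168 genes, 6 members (TK1, RRM2, TYMS, DUT, DTYMK and DCK) and 30 pathway and regulator genes were called, on 1 residual degree of freedom. Depth limits the lowest values most, such as TK1, RRM2 and DCK in shPTPRN3 replicate 2.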

Other observations

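Genes that clean the nucleotide pool or carry nucleosides included 1 gene whose value lay in the range of the S-phase members. NUDT1, which destroys oxidised purine nucleotides, had scaled FPKM of 53.7 and 21.5 in shNC against 11.9 and 3.07 in shPTPRN3 (log2 fold change -2.28, limma adjusted p = 0.191), in a list of 11 tested breakdown and cleaning genes with a median of -0.30. ADA, the adenosine deaminase, stood higher in shPTPRN3, at 24.3 and 14.7 against 47.5 and 26.1 (log2 fold change 0.87, limma adjusted p = 0.433). All 5 tested transporters had negative values, with a median of -0.63. SLC29A1, the main equilibrative nucleoside carrier of the plasma membrane, stood at 12.5 and 12.2 in shNC and at 5.68 and 4.54 in shPTPRN3 (log2 fold change -1.13, limma adjusted p = 0.180).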
